A study of Rattus norvegicus with 6 samples.

Results

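The transcripts described here encode 9 potassium channel subunits of pancreatic β-cells, chosen by gene name: the KATP subunits Abcc8 and Kcnj11, the calcium-activated channels Kcnma1, Kcnn1 and Kcnn3, the voltage-gated channels Kcnq1 and Kcnh6, and the two-pore channels Kcnk3 and Kcnk16. All 9 were found among the 32900 features of the deposited table, and all 9 were among the 15579 genes whose normalized counts averaged 5 or more and which were therefore tested. Total RNA depleted of rRNA was sequenced from 6 clonal lines of the rat insulinoma INS-1(832/13)::mCherry, a cell line that secretes insulin and carries a human INS-neoR and a mouse Ins2-C-mCherry transgene. The 3 control lines (5-9, 2 and 16) lack the Prader-Willi syndrome (PWS) imprinted domain on the silent maternal allele, and the 3 PWS lines (3, 19-1 and 19-4) lack it on both alleles. Every line grew in 7.5 mM glucose with no further treatment and gave 1 library. The 5 other lines were cloned from line 5-9, the second deletion of line 3 has another proximal breakpoint than that of line 19, and 19-1 and 19-4 are 2 subclones of line 19. The PWS lines thus stand for 2 independent clones, and p-values measure the spread between clonal cultures.

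In β-cells, potassium channels hold the membrane potential negative at low glucose and end each burst of calcium entry at high glucose. The KATP channel, built from the pore subunit Kir6.2 (Kcnj11) and the sulfonylurea receptor SUR1 (Abcc8), closes when ATP rises, so that the membrane depolarizes, voltage-gated calcium channels open and insulin granules are released. Voltage-gated and calcium-activated channels then repolarize the cell, and two-pore channels add a background current that sets how easily it fires.

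Between 26016478 and 36084261 counted reads stood behind each line in the table used, which counts a read for every feature it matches, and between 17530149 and 23022637 in the table of reads that match 1 feature, and the values are reads divided by a size factor of the line, called normalized counts. The check of the deletion held in every library, since Snurf and Snrpn had 3149 to 3992 normalized counts in the controls and at most 3.64 in PWS lines, while Mkrn3 had 258 reads in all control libraries combined and 0 in the PWS libraries. Of 12 β-cell markers listed, 11 were in the table and all 11 were tested. Their summed level, mostly Ins1 and Iapp, lay between 492393 and 571846 normalized counts in the controls and stood at 464328 in PWS line 3, 361697 in line 19-1 and 261569 in line 19-4. Sst, Irx2, Prss1, Amy2a3, Cftr, Cdh5 and Ptprc, which define other islet, pancreatic, endothelial or blood cells, were at 0 in every line. The summed level of the 3 glial markers (1020 to 1242 against 1285 to 1689, mostly Mbp) did not overlap between control and PWS lines. That of the 3 neuronal markers, mostly Map2, ran from 3083 to 3135 against 3149 to 3941, while Map2, Tubb3 and Rbfox3 each overlapped between the groups and Rbfox3 had the opposite sign (log2 fold change -0.67). The fibroblast markers summed to 140 to 166 against 47.3 to 131, nearly all from Pdgfra. The part of these shifts in the channel values was not tested. As all lines are clones of the same insulinoma, the markers are read here as transcripts of these lines, not as shares of other cell types. In bulk RNA, fewer cells that express a transcript and less of it per cell cannot be told apart.

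The 9 transcripts held between 0.0502% and 0.0632% of the counted reads of a line, a total in which a read that matches several features counts for each. Both extremes came from subclones of line 19, with the lowest share in 19-4 and the highest in 19-1. Their sum was 18828 ± 650 (SD, n = 3) normalized counts in the controls, against 17931 ± 2198 (SD, n = 3) in PWS lines, so that the total differed between the groups by less than the spread of the PWS lines. Counts grow with transcript length and the files give no lengths, so an order of genes by counts, used below only to choose which genes of a list are named, is no order of expression.

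In limma no gene of the 9 had an adjusted p-value under 0.05, while calls at that level made up 0.257% of all tested genes. None passed in edgeR (0.205% of tested genes called). In DESeq2 on the recovered reads none passed 0.05 either (1.47% called), and Kcnq1 alone passed the study's cutoff of 0.1 (2.37% called). Without adjustment, 3 of the 9 had a p-value under 0.05 in limma (Kcnq1, Kcnk3 and Kcnk16), against 11.3% of all tested genes. The median log2 fold change of the 9 was -0.22, with 3 higher and 6 lower on average in PWS lines, beside -0.0028 for all tested genes. The groups did not overlap for 1 gene that was higher in PWS lines (Kcnk3; 8.43% of all tested genes) and 1 that was lower (Kcnq1; 9.01%).

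**Figure D1:**
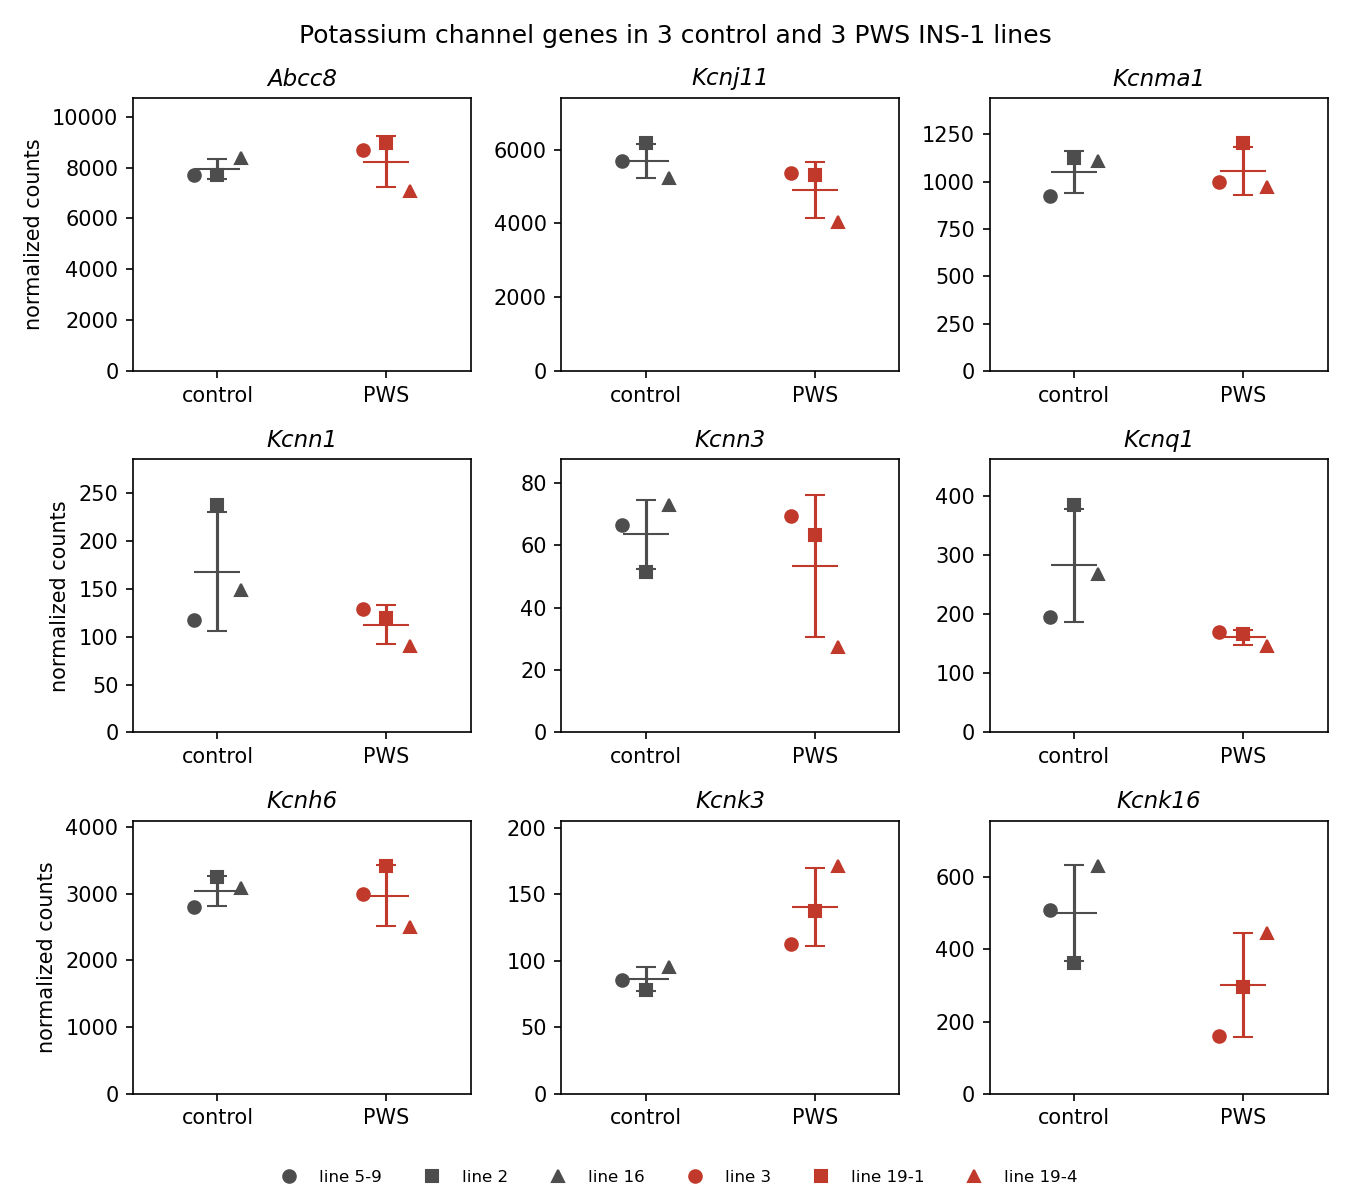
Normalized counts (vertical axes, from 0) of each of the 9 potassium channel transcripts in the 3 control lines (grey) and the 3 PWS lines (red), with the group mean as a horizontal mark and the SD as bars. All PWS points lie under the control points for Kcnq1 and above them for Kcnk3, whereas the groups overlap for the other 7.

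Abcc8 (ENSRNOG00000021130), the regulatory subunit that binds sulfonylurea drugs and magnesium nucleotides, had 7720, 7718 and 8379 normalized counts in controls 5-9, 2 and 16, against 8678, 8948 and 7082 in PWS lines 3, 19-1 and 19-4. The highest and the lowest of the 6 values both belonged to subclones of line 19. The log2 fold change was 0.046 (95% interval -0.18 to 0.27, adjusted p = 0.899 in limma), so that the interval leaves room for a change of about 0.27 in size on this scale. Kcnj11 (ENSRNOG00000021128), which forms the pore and carries the ATP site that closes it, had 5691, 6165 and 5225 normalized counts in the controls, against 5375, 5309 and 4024 in PWS lines. PWS lines 3 and 19-1 lay between the control lines 16 and 5-9, and line 19-4 lay under all others. Its log2 fold change was -0.22 (95% interval -0.50 to 0.051, adjusted p = 0.529 in limma), and was -0.089 without line 19-4. More than 99% of the reads of both genes were unique to them.

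Since the channel is assembled from equal numbers of both subunits, their ratio was also taken per line. Log2 of Abcc8 over Kcnj11 was 0.44, 0.32 and 0.68 in control lines 5-9, 2 and 16, and 0.69, 0.75 and 0.82 in PWS lines 3, 19-1 and 19-4. The groups did not overlap, but control line 16 and PWS line 3 were separated by far less than the control lines were among each other. The mean was 0.27 higher in PWS lines (0.48 ± 0.18 against 0.75 ± 0.062, SD, n = 3 each). An exact two-sided permutation test gave p = 0.1, below which a design of 3 against 3 cannot go. Groups that do not overlap always give this value, and the test counts the subclones 19-1 and 19-4 as separate lines. The 2 genes are neighbours in the rat genome, as the order of genes in the RefSeq table of assembly GRCr8 shows. The other pair that forms KATP channels, Kcnj8 (Kir6.1) and Abcc9 (SUR2) of vascular and cardiac muscle, had no read in any line, which allows up to 3 reads per line, or 2.73 to 3.59 normalized counts.

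**Figure D2:**
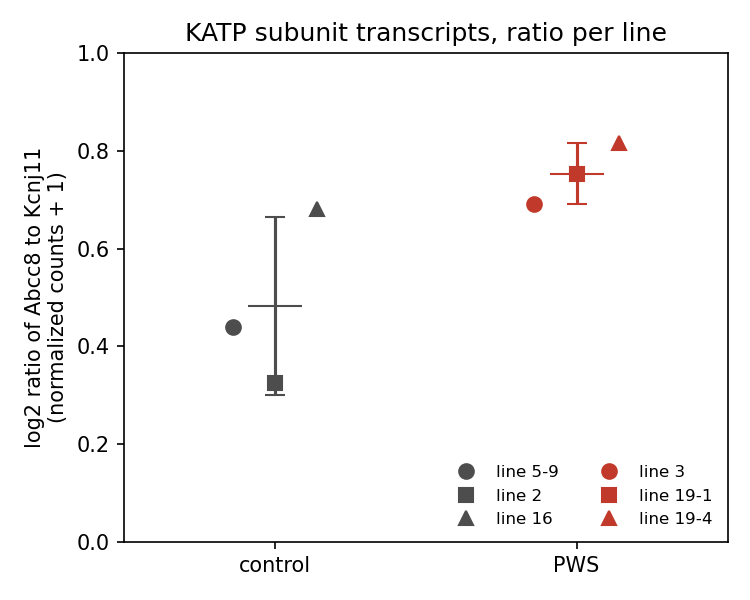
Log2 ratio of Abcc8 to Kcnj11 (vertical axis, normalized counts plus 1) in each control line (grey) and PWS line (red), with group means and SD. The PWS lines sit between 0.69 and 0.82 and the control lines between 0.32 and 0.68, so the groups come close to each other without overlapping.

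Kcnq1 (ENSRNOG00000020532) encodes Kv7.1, a slowly activating voltage-gated channel, and is imprinted in mammals through the antisense transcript Kcnq1ot1. It had 196, 386 and 269 normalized counts in controls 5-9, 2 and 16, against 169, 166 and 147 in PWS lines 3, 19-1 and 19-4. Every PWS line was lower than every control line, and the PWS lines lay close together while the control lines spread widely, with line 2 highest. The control mean was 283 ± 95.8 and the PWS mean 161 ± 12.0 (SD, n = 3 each). This gave a log2 fold change of -0.76 (standard error 0.23, 95% interval -1.28 to -0.24, adjusted p = 0.311 in limma). DESeq2 gave an adjusted p of 0.0515 and edgeR 0.305, with log2 fold changes of -0.82 and -0.81, and over all alternatives the adjusted p ran from 0.0515 to 0.603. Control line 2 carried part of the difference, which was -0.51 without it, and without line 5-9, the lowest control line, it was -0.999. The libraries were stranded, but whether the counting separated strands is not given in the sources used here. Without that, reads of Kcnq1 and of an antisense partner cannot be told apart, although 99.9% of the reads were assigned to Kcnq1 alone.

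Kcnh6 (ENSRNOG00000008078) encodes an ether-à-go-go-related channel (Kv11.2) that opens on repolarization. Control lines had 2798, 3247 and 3080 normalized counts and PWS lines 2997, 3406 and 2498. The highest and lowest of the 6 were again the subclones 19-1 and 19-4. The log2 fold change was -0.045 (95% interval -0.31 to 0.22, adjusted p = 0.920 in limma).

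Among the calcium-activated channels, Kcnma1 (ENSRNOG00000005985), the pore subunit of the large-conductance BK channel, differed least. It had 925, 1123 and 1107 normalized counts in the controls, against 1000, 1202 and 969 in PWS lines. The groups overlapped, with a log2 fold change of 0.0066 (95% interval -0.25 to 0.26, adjusted p = 0.989 in limma). Kcnn1 (ENSRNOG00000029264), a small-conductance SK channel opened by calmodulin-bound calcium, had 118, 238 and 149 normalized counts in the controls, against 129, 120 and 90.0 in PWS lines. Control line 2 stood above the 5 other lines, and control line 5-9 lay below PWS lines 3 and 19-1. The log2 fold change was -0.53 (95% interval -1.13 to 0.075, adjusted p = 0.497 in limma), and was -0.25 without control line 2. Kcnn3 (ENSRNOG00000020706), another SK channel, had the fewest reads of the 9, with 66.5, 51.4 and 72.9 normalized counts in the controls, against 69.4, 63.4 and 27.3 in PWS lines. Line 19-4 alone was low, with 30 reads and a 95% Poisson interval of 18.4 to 38.9 normalized counts that covers counting error only and lies under the values of the 5 other lines. The log2 fold change was -0.34 (95% interval -1.14 to 0.46, adjusted p = 0.757 in limma), and it turned to 0.075 without line 19-4.

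The 2 two-pore channels went in opposite directions on average. Kcnk3 (ENSRNOG00000009790) encodes TASK-1, an acid-sensitive background channel. It had 85.5, 78.0 and 95.5 normalized counts in controls 5-9, 2 and 16, against 112, 138 and 171 in PWS lines 3, 19-1 and 19-4, so that every PWS line was higher than every control line. The log2 fold change was 0.68 (standard error 0.19, 95% interval 0.25 to 1.10, adjusted p = 0.283 in limma), and over the alternatives tried it stayed between 0.53 and 0.83. Its p-value was the lowest of the 9 in limma. DESeq2 gave it an adjusted p of 0.120, the lowest of a range that reached 0.587 over the alternatives. Between 85 and 188 reads per line stood behind these values.

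Kcnk16 (ENSRNOG00000006422) encodes TALK-1, a two-pore channel found mainly in the islets of the pancreas. It had 508, 363 and 630 normalized counts in the controls, against 160, 297 and 446 in PWS lines. The mean was 500 ± 133 (SD, n = 3) against 301 ± 143 (SD, n = 3), but line 19-4 was higher than control line 2, and line 3 lay far below both other PWS lines. The log2 fold change was -0.82 (95% interval -1.61 to -0.016, adjusted p = 0.434 in limma). It was -0.42 without line 3 and -1.16 without line 19-4. Its neighbour in the RefSeq gene order, the two-pore channel gene Kcnk5, stood at 72.6 ± 16.0 in control and 62.3 ± 10.6 in PWS lines (normalized counts, SD, n = 3 each; log2 fold change -0.21, adjusted p = 0.776 in limma).

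**Figure D3:**
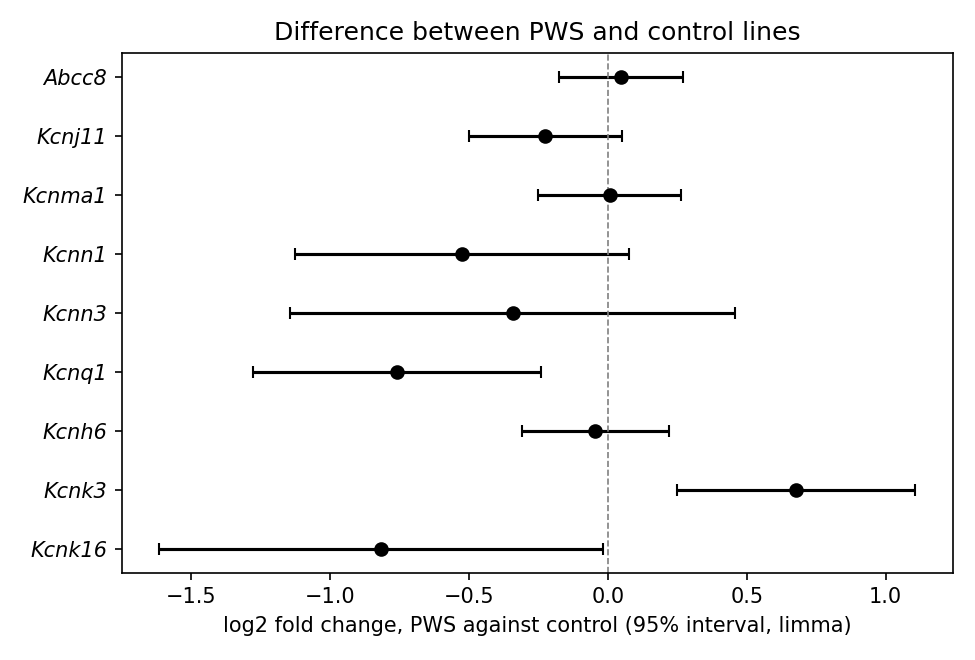
Log2 fold change of each transcript between PWS and control lines (horizontal axis, limma, 3 lines per group) with its 95% interval, not adjusted for the number of genes. The intervals of Kcnq1, Kcnk3 and Kcnk16 lie to one side of 0, the last by 0.016, and those of the other 6 include 0.

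The spread between lines of a group differed widely among the transcripts. The SD within groups on the log2 scale was 0.14 for Abcc8, 0.16 for Kcnma1, 0.18 for Kcnh6 and 0.19 for Kcnj11, near the median of 0.15 over all tested genes. It was 0.59 for Kcnk16 and 0.54 for Kcnn3, which exceeded 94.0% and 92.5% of all tested genes, and 0.41 for Kcnn1. For Kcnq1 it was 0.35 and for Kcnk3 0.24. The counting error of the line with the fewest reads was 7.98% for Kcnk16, 8.48% for Kcnq1, 10.1% for Kcnn1, 10.8% for Kcnk3 and 18.3% for Kcnn3. The part of counting error in the spread was not tested. For Kcnk16 the PWS lines spanned 1.47 on the log2 scale and the control lines 0.79.

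The subclones 19-1 and 19-4 carry the same deletion but were isolated separately from line 19 by cell dilution. Their difference is thus that between 2 subclones, with 1 library each. Of the 9 transcripts, 7 were lower in 19-4 than in 19-1, against 51.8% of all tested genes. The size of the difference had a median of 0.40 over the 9 and 0.17 over all tested genes on the log2 scale. For Kcnn3 the difference was -1.19, for Kcnh6 -0.45, for Kcnj11 -0.40 and for Abcc8 -0.34, each of them larger in size than the difference between the groups. However, a difference between single lines varies more than a difference between group means, so the 2 are not like measures. Kcnk3 and Kcnk16 were higher in 19-4, by 0.31 and 0.59. Kcnq1 differed least between the subclones, by -0.17. Line 19-4 had the lowest value of the 6 lines for 6 of the 9 transcripts (Abcc8, Kcnj11, Kcnn1, Kcnn3, Kcnq1 and Kcnh6), compared with 20.3% of all tested genes, and it was also the line with the lowest sum of β-cell markers. It stood apart on other marker sums as well, which in normalized counts were 294 for alpha cells (181 to 217 in the 5 other lines), 13.6 for delta cells (at most 3.06, with Sst at 0 throughout), 1272 for duct cells (1762 to 1901, nearly all Krt7) and 47.3 for fibroblasts (117 to 166). Among the alpha cell markers Gcg had 110 reads in 19-4 and at most 20 in another line, while Irx2 was at 0. The part of these differences in the low channel values of 19-4 was not tested.

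**Figure D4:**
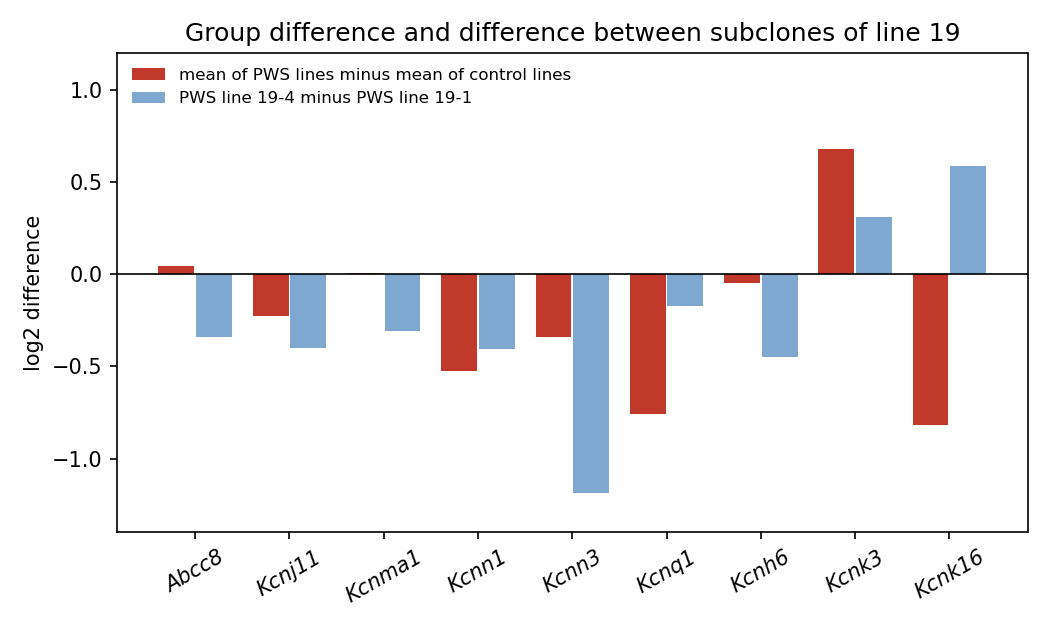
Log2 difference between the means of PWS and control lines (red bars) and between the PWS subclones 19-4 and 19-1 (blue bars) for each transcript. The blue bar is the longer one for Abcc8, Kcnj11, Kcnma1, Kcnn3 and Kcnh6, while the red bar is longer for Kcnn1, Kcnq1, Kcnk3 and Kcnk16. Blue bars compare single lines, which vary more than the group means compared by red bars.

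Kcnq1 and Kcnn1 followed each other from line to line. In both, control line 2 was highest, control line 16 next and PWS line 19-4 lowest, and the log2 levels had a Pearson correlation of 0.95 (Spearman 0.83) over the 6 lines, or 0.82 without control line 2. Kcnk3 ran against Kcnj11 (Pearson correlation -0.88), and Kcnma1 ran with Kcnh6 (0.85). The lines share an origin and each correlation rests on few points, so these values describe the 6 libraries.

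Over all tested genes with a symbol, the pattern most like that of each transcript was found by the Pearson correlation of log2 levels over the 6 lines. For Kcnq1 these genes were Plxna4, Rassf6 and Slc35f6 (0.996 to 0.993), and for Kcnn1 they were Xrra1, Map1lc3a and Rabep2 (0.997 to 0.992). For Kcnk3 they included Xpo7 and Cog5 (0.992 and 0.991), and for Kcnk16 Zfp354a, Slfn13 and Cox16 (0.986 to 0.974). Abcc8 was closest to Mbtps1, Smoc1 and Trappc12 (0.988 to 0.985), whereas Kcnj11 was closest to Lrrn2, Chst15 and Fzd6 (0.991 to 0.990). Kcnma1 was closest to Ccdc157, Galns and Slc9a3 (0.996 to 0.978), Kcnh6 to Trpm3, Abr and Gpr37 (0.995 to 0.984) and Kcnn3 to Card19, Man2b1 and Ctsa (0.987 to 0.984). With 6 points high correlations are common, and between 8 genes (for Kcnk16) and 121 genes (for Kcnn1) exceeded 0.95.

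Lists of the other potassium channel genes, put together by gene family, held 92 genes, of which 90 were in the table, 67 had a read and 48 were tested, while Kcnb2 and Kcnd2 were not analysed here. Neither limma, edgeR nor DESeq2 called any of the 48 at 0.05. Without adjustment, 5 of the 48 with a higher and 5 with a lower PWS mean had a p-value under 0.05 in limma, beside 6.0% and 5.35% of all tested genes. The groups did not overlap for 4 with PWS lines higher and for 2 with PWS lines lower, beside 8.43% and 9.01% of all tested genes. The median log2 fold change was 0.028. Their summed level was 8679 ± 381 (SD, n = 3) normalized counts in the controls, against 8668 ± 457 (SD, n = 3) in PWS lines.

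For the 23 tested pore subunits of other voltage-gated channels the median difference on the log2 scale was 0.17, with 14 higher and 9 lower on average. Kcnh2, which encodes another ether-à-go-go-related channel and was among those with the most counts, had a log2 fold change of 0.17. At the ends, Kcna3 (Kv1.3) had 122, 116 and 161 normalized counts in the controls, against 162, 279 and 205 in PWS lines (log2 fold change 0.67, adjusted p = 0.338 in limma). The control and PWS ranges were set apart by 1 normalized count. Kcnd3 (Kv4.3), which carries a transient A-type current, had 59.8, 209 and 63.7 normalized counts in the controls, against 40.8, 61.0 and 29.1 in PWS lines (log2 fold change -1.14, adjusted p = 0.432 in limma). As with Kcnq1 and Kcnn1, control line 2 was the highest, which held for 24.5% of all tested genes. Among 10 tested auxiliary subunits of these channels, Dpp6, Kcnip3 and Kcnab3 had the most counts, with log2 fold changes of 0.027, -0.021 and -0.36. The lowest value was -1.21 for Kcnip1 (adjusted p = 0.401 in limma), whose protein binds Kv4 channels and whose levels of 51.3, 123 and 63.7 in control lines lay above the 50.02, 39.5 and 15.5 normalized counts in PWS lines, the nearest pair by little. The highest was 0.77 for Kcnip2, with 80 reads in all and none of them unique to it. Of the subunits that pair with Kv7.1, Kcne1 and Kcne3 had no read in any line, and Kcne2 was at 20.4 ± 7.09 in control and 26.4 ± 6.96 in PWS lines (normalized counts, SD, n = 3 each).

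Of the other calcium- and sodium-activated channels and their partners, 4 of 13 were tested. Kcnmb4, a β subunit of the BK channel, had 122, 148 and 121 normalized counts in the controls, against 87.8, 99.2 and 92.7 in PWS lines, and the groups did not overlap (log2 fold change -0.47, adjusted p = 0.329 in limma). Kcnmb2, another β subunit, had the opposite sign, 0.62 (adjusted p = 0.530), and its groups overlapped. Kcnt2, a sodium-activated channel, had 41.8, 36.7 and 46.2 normalized counts in the controls, against 66.4, 52.6 and 71.8 in PWS lines, with no overlap (log2 fold change 0.60, adjusted p = 0.344 in limma). Kcnn2, the remaining SK channel tested, had -0.059, with 45.2% of its reads unique to it. Of 15 other inward rectifier genes, Abcc9 included, 5 were tested. Their log2 fold changes lay between -0.21 for Kcnj6, a G-protein-gated channel, and 0.41 for Kcnj2, a constitutively open one, with 0.12 for Kcnj14. All 6 tested two-pore channels other than Kcnk3 and Kcnk16 were lower on average, with a median of -0.34, from -0.92 for Kcnk2 (81 reads) to -0.037 for Kcnk12. Kcnk1, with the most counts of them, had -0.30 (adjusted p = 0.572 in limma), with 73.9% of its reads unique to it. Kcnk6 had -0.38 (adjusted p = 0.432 in limma), although no read of Kcnk6 was unique to it. TASK-1 was thus the one two-pore channel of the 8 tested with a higher mean in PWS lines. None of the 8 was called, and 7901 of all 15579 tested genes were lower on average.

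**Figure D5:**
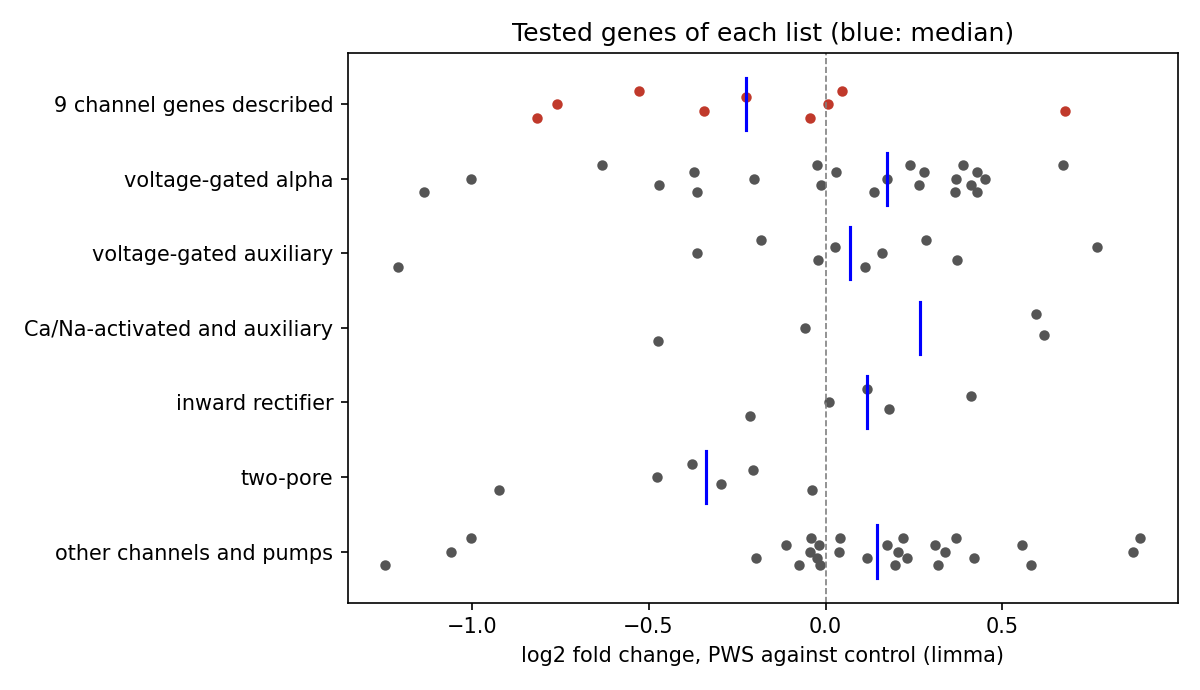
Log2 fold change between PWS and control lines (horizontal axis, limma) of every tested gene of each list, 1 point per gene, with the list median as a blue line and the 9 potassium channel genes described above in red. The points of every list lie on both sides of 0 except the two-pore list, whose 6 genes are all below 0.

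The remaining ion channels and pumps that set the membrane potential were taken as a further list, of which 28 of 32 were tested. None passed 0.05 in limma or edgeR, while 10 of the 28 with a higher and 2 with a lower PWS mean had an unadjusted p-value under 0.05 in limma, beside 6.0% and 5.35% of all tested genes. For 2 of the 10, both sodium channel genes, unique reads made up only 17.2% and 11.5%, so that these share most of their counts with other features. Atp1b1, a β subunit of the sodium pump, which maintains the potassium gradient these channels use, had a log2 fold change of -0.018. The highest value of the list was 0.89 for Atp1b2, with 65 reads in all. In DESeq2, which called 1.47% of all tested genes at 0.05, 3 genes of the list passed: the sodium channels Scn2a (log2 fold change 0.58 in limma) and Scn3a (0.34), both higher in every PWS line, and the lipid scramblase and ion channel Ano6 (-1.001), lower in every PWS line. Scn2a, at 708 ± 79.1 against 1058 ± 90.5 normalized counts (SD, n = 3 each), had an adjusted p of 0.151 in limma and 0.00110 in DESeq2. Scn2a and Ano6 were singled out after their values were seen.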

How the data were processed

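Total RNA-seq of 3 control and 3 PWS INS-1 lines was analysed, 1 library per line. The authors trimmed stranded paired-end reads with cutadapt, aligned them with STAR 2.7.0e to the Ensembl rat genome with the transgenes added, counted them with HTSeq 0.11.2 (nonunique all or nonunique none) or RSEM 1.3.1, and ran DESeq2. The deposited values are a signal: counts divided by size factors. The authors' own fold changes and p-values in these tables were not used. Of the nonzero values in the HTSeq tables, 100% were multiples of the value of 1 read within 0.001, which gave back the reads.

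The nonunique all table was compared with limma 3.58.1 in R 4.3.3 (eBayes with trend) on log2(normalized count + 1), a scale that understates changes of weakly expressed genes, over the 15579 genes averaging 5 or more, with Benjamini-Hochberg adjustment. Intervals are limma's 95% intervals. edgeR 4.0.16 and DESeq2 1.42.0 were run on the reads recovered for these genes, and DESeq2 gave an adjusted p-value for 15563. All 3 methods were tested on simulated data. Counts of genes past a threshold are set beside the share of all tested genes past it.

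The genes and lists were chosen with earlier results of these data known. Named besides the 9 are, of each list, the 3 genes with the highest mean and those with the highest and lowest log2 fold change, the 3 genes most alike to each of the 9, and the genes called. Some genes that this rule names are not reported here. Genes named outside this rule (Kcnk5, Kcnt2, Kcnj8, Abcc9, Kcne1 to Kcne3, Scn2a and Ano6) were chosen after their values were seen. Replicate numbers did not pair the lines: the deviations of same-numbered lines from their group means had correlations between 0.0035 and 0.047 over genes.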

Additional observations from a re-analysis of the deposited data

How the results depend on the processing

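Under all 17 alternatives run for each of the 9 transcripts (pseudocounts of 0.5 and 5, all genes with any read, only genes averaging 50 or more, scaling by TMM, edgeR, DESeq2, nonunique none counting, RSEM, each line left out, the replicate block, subclones 19-1 and 19-4 averaged) none passed an adjusted p-value of 0.05. DESeq2 at a cutoff of 0.1, an alternative chosen after seeing the data, gave 1 (Kcnq1). Kcnj11, Kcnn1, Kcnq1, Kcnk3 and Kcnk16 kept the sign of their difference under every alternative. Kcnma1 changed sign with RSEM (-0.016) and with the subclones averaged (-0.0075). With each line left out, the log2 fold change ran from -0.017 to 0.15 for Abcc8, from -0.089 to 0.066 for Kcnma1, from -0.58 to 0.075 for Kcnn3, from -0.15 to 0.074 for Kcnh6, from -0.999 to -0.51 for Kcnq1 and from -0.75 to -0.25 for Kcnn1. The count over all tested genes was 40 in limma, and 9 among genes averaging 50 or more, 228 in DESeq2 (369 at 0.1), 16 with nonunique none counting and 12 with RSEM; the cause was not tested. With the replicate block it was 36, and the block changed no call among the 9. The log2 ratio of Abcc8 to Kcnj11 differed by 0.19 to 0.37 with each line left out. Counting error limits Kcnn3, Kcnn1 and Kcnk3 most. With 3 lines per group, differences of the size seen for Kcnq1 and Kcnk3 did not pass after adjustment, which does not show that they are absent.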
